A study of Mus musculus with 2 samples.

Results

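Arterial endothelial cells of the aged mouse brain were 1031 of the 37387 barcodes in the series, 451 of 19159 in the KO library and 580 of 18228 in the WT library. They were chosen by measured levels of marker genes, in steps. A barcode needed at least 2000 unique molecular identifiers (UMIs, the counted transcript molecules) and at most 10% mitochondrial UMIs. It needed the endothelial genes Cldn5 and Flt1 together at 0.2% or more of its UMIs. It had to hold less than 0.1% of the pericyte genes Vtn, Kcnj8 and Rgs5, less than 0.2% of the microglial genes Tmem119, P2ry12, Siglech, Gpr34 and Sall1, and less than 0.05% of the platelet genes Ppbp, Gp9 and Clec1b. Of those endothelial barcodes, the arterial ones held Gkn3, Bmx and Sema3g together at 0.05% or more and at 2 UMIs or more. The remaining 2062 KO and 2083 WT endothelial barcodes are called other endothelial cells.

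The KO group was 1 droplet single-cell RNA library of untreated CD200R1-/- mice and the WT group 1 library of untreated wild-type mice, both C57BL/6J and 18 months old. CD200R1 restrains myeloid cells that meet its ligand CD200. The labels name no cell type to which the deletion would be limited. Brains were perfused and dissociated, and CD11b+ cells were taken with magnetic particles, so endothelial cells, which lack CD11b, are carry-over of that selection. The targeted gene did not separate the libraries: Cd200r1 was at 21.9 CPM (UMIs per 1000000 UMIs of the summed cells) in KO and 24.98 CPM in WT microglia. The deleted part of the gene is not given in the sources used here, and 3′ counts from outside it would check nothing, so KO and WT mean the libraries labelled so. The number of mice behind a library is not stated. With 1 library in each group no genotype difference has a replicate check and no test was made. Intervals are 95% and cover counting error only.

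Cerebral arteries and arterioles carry blood under pressure into the capillary bed. Their endothelium is set apart from capillary and venous endothelium by Notch signalling from the ligands Dll4, Jag1 and Jag2 to Hey transcription factors, by the ephrin ligand Efnb2, by connexins that pass signals along the vessel wall, and by elastic fibre proteins of the inner wall layer. All brain endothelium, arteries included, forms the blood-brain barrier, and it answers type I interferon through STAT2 and the IRF factors with a set of antiviral genes. Endothelial cells also display CD200, the ligand of CD200R1.

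Among genes with at least 50 UMIs, 45 were at least 2-fold higher in KO than in WT arterial cells (0.424% of 10617) and 6 at least 2-fold lower (0.0565%), on the scale of CPM plus 10. Of the 45, 23 were members of the list of 30 interferon response genes, and 3 were haemoglobin genes. The upstream sequences of 3 of the 12 highest genes are shown here because a known interferon-response motif lies in them. They are the 250 bases before the transcription start, 5′ to 3′ on the gene's strand, from RefSeq (GRCm38.p6), for Isg15 (chr4:156200819-156201068, minus strand), Ifit3 (chr19:34583279-34583528, plus strand) and Ifit3b (chr19:34607707-34607956, plus strand). Capitals mark the motif, GAAA then any 2 bases then GAAA, on either strand.
Isg15: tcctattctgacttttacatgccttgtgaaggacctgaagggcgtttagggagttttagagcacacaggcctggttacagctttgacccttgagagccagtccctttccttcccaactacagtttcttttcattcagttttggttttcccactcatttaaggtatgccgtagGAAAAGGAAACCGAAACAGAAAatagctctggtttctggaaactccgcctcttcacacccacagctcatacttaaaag
Ifit3: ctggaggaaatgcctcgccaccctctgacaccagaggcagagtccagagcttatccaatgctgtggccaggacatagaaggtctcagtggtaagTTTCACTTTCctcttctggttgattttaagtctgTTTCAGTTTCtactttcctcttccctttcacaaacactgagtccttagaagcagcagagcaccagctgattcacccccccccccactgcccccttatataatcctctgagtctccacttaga
Ifit3b: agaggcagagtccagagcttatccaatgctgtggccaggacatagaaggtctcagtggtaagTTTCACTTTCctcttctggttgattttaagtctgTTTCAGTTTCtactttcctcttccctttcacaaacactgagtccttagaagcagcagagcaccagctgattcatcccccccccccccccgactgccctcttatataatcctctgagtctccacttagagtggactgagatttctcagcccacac
In Isg15 3 overlapping matches formed 1 block that began 78 bases before the start. Ifit3 had 2 separate matches, the first 156 bases before the start, and Ifit3b had 2, the first 188 bases before it. Ifit3 and Ifit3b are neighbouring, closely related genes, and their upstream sequences resemble each other. Of the 12 highest genes 10 had a window in RefSeq, and 5 of these held the motif (Isg15, Ifit1, Ifit3, Ifit3b and Apol9b), as did 1 of the 11 lowest genes with a window (Ifi203). Over all 27025 genes with a window the share was 3.46%. A match is a description of the letters and not of a bound site.

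The arterial label was checked on genes that the rule did not use. Gkn3, Bmx and Sema3g themselves chose the cells, so their levels are a description. Gkn3 (GRCm38 chromosome 6, 87383256 to 87388935, minus strand), a gastrokine gene used as a marker of brain arteries, stood at 789 CPM in KO and 1245 CPM in WT arterial cells, against 17.2 and 18.7 CPM in other endothelial cells of KO and WT. Bmx (chromosome X, 164192842 to 164258193, minus strand), a non-receptor tyrosine kinase, stood at 347 CPM in KO and 373 CPM in WT arterial cells, against 24.0 and 21.7 CPM in the other cells. Sema3g (chromosome 14, 31217860 to 31230352, plus strand), a secreted semaphorin, stood at 303 CPM in KO and 262 CPM in WT arterial cells, against 27.3 and 21.4 CPM. Between the arterial cells of the libraries Gkn3 was lower in KO, while Bmx and Sema3g stayed within 25% higher and 20% lower. Cldn5, the main tight junction claudin of brain endothelium, had at least 1 UMI in 100% of KO and 99.7% of WT members.

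The members did not all carry all 3 genes. All 3 were seen in 250 KO (55.4%) and 353 WT cells (60.9%), 2 of them in 158 KO and 184 WT cells, and 1 in 43 cells of each library. Just inside the limit, at 0.05 to 0.06%, stood 56 KO and 45 WT cells, in which Mgp was at 862 and 1179 CPM. Just outside it, at 0.04 to 0.05%, stood 78 KO and 92 WT cells with Mgp at 484 and 664 CPM. The 1513 KO and 1438 WT endothelial cells with no UMI of the 3 genes had Mgp at 106 and 82.5 CPM, and the 104 KO and 213 WT members at 0.2% or more had 6440 and 6276 CPM. Mgp was thus graded across the limit, which cuts a range and not a gap. Hey1 was at 158 CPM just inside and 128 CPM just outside in KO, but at 82.8 and 96.7 CPM in WT. Efnb2, Clu and Fbln5 were likewise higher just inside in KO and just outside in WT, while Vegfc was higher just inside in both. In WT, Hey1, Efnb2, Clu and Fbln5 thus did not fall across the limit, while Mgp and Vegfc did. Slc38a5, which helped to set the venous-side cells, was at 31.9 CPM just inside and 73.5 CPM just outside in WT. In KO it was at 24.6 and 33.3 CPM. Fbln5 was low on both sides, at 4.25 CPM just inside and 12.9 CPM just outside in WT. These are sums over the cells of a band, and single barcodes were not compared.

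Of the list of 28 arterial identity genes, all measured, 25 were higher in arterial than in other endothelial cells of both libraries, 20 of them 2-fold, and 1 was lower. A list gene counts as higher where the ratio of CPM + 10 is at least 25% above 1 and as lower where it is at least 20% below 1. For this and every later list count of arterial over other cells, the background was 4.37% of 15701 genes higher and 3.42% lower at these limits. At 2-fold it was 0.896% of 13734 genes higher and 0.51% lower. Since the arterial rule set this contrast, nothing is read from those shares. Mgp (chromosome 6, 136872435 to 136875823, minus strand), matrix Gla protein, an inhibitor of vessel calcification, stood at 2588 CPM in KO and 3158 CPM in WT arterial cells, against 203 and 142 CPM in other endothelial cells. It was at 141 and 124 CPM in KO and WT venous-side cells and at 220 and 139 CPM in capillary-side cells. Vegfc, a growth factor of lymphatic vessels, had 271 CPM in KO and 266 CPM in WT arterial cells, against 23.5 and 25.9 CPM. Both genes were far above the level of every other endothelial group in both libraries.

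Other genes that were highest in arterial over other endothelial cells came from several families. Egfl8, an EGF-domain protein, had 192 CPM in KO and 231 CPM in WT arterial cells, against 12.6 and 13.8 CPM in other endothelial cells. Igfbp3, a binding protein of insulin-like growth factors, had 165 and 172 CPM, against 13.4 and 18.4 CPM. Cdh13, a cadherin without a transmembrane part, had 233 and 341 CPM, against 50.3 and 57.7 CPM, and 5.52 CPM in KO and 8.95 CPM in WT venous-side cells. Alpl, alkaline phosphatase, had 278 and 251 CPM, against 63.1 and 52.0 CPM. All 4 were far lower in venous-side than in arterial cells. Cytl1 was rarer, with a UMI in 10.2% of KO and 12.4% of WT members, at 71.1 and 59.1 CPM, against 1.19 and 0.805 CPM in other endothelial cells. Of 18 TGF-beta and BMP genes 5 were higher in arterial cells and none lower, among them Smad6, an inhibitor of BMP signalling, with 127 and 136 CPM, against 37.8 and 40.4 CPM, and the ligand Tgfb2 with 387 and 383 CPM, against 186 and 172 CPM.

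Of the 20 Notch pathway genes, 8 were higher in arterial cells of both libraries and 2 lower. The ligand Dll4 had 99.1 CPM in KO and 78.5 CPM in WT arterial cells, against 31.7 and 23.7 CPM in other endothelial cells, and Jag1 had 111 and 121 CPM, against 41.2 and 46.7 CPM. The target factor Hey1 had 139 and 149 CPM, against 33.2 and 29.7 CPM, and was at 2.51 CPM in KO and 4.22 CPM in WT venous-side cells. The lower ones were Notch2, at 15.1 and 20.9 CPM against 24.8 and 30.6 CPM, and Lfng, at 15.4 and 15.5 CPM against 26.5 and 29.7 CPM. Hey2 and Cxcr4 were on the identity list but near their level in other endothelial cells, and Nrp1, a semaphorin and VEGF co-receptor, was the 1 list gene that was lower, at 129 CPM in KO and 114 CPM in WT, against 169 and 159 CPM.

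**Figure D1:**
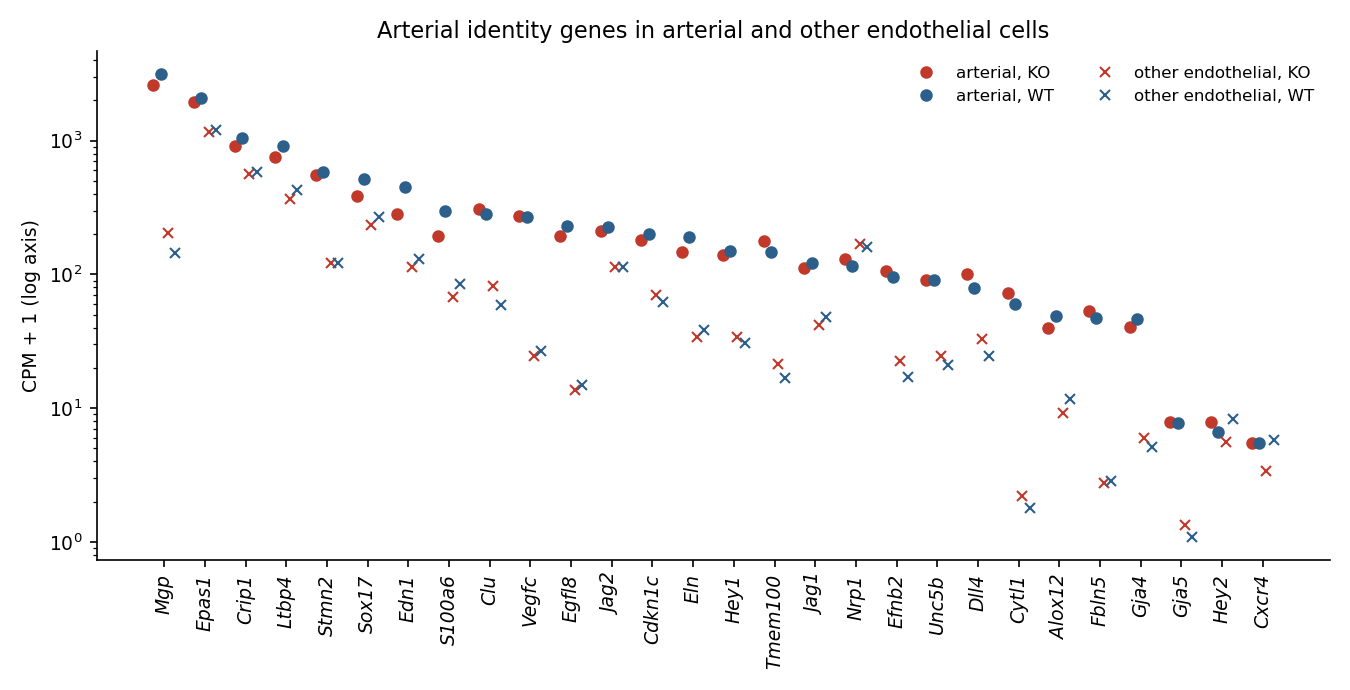
Levels of the 28 arterial identity genes, as CPM + 1 on a log axis, in arterial cells (filled circles) and other endothelial cells (crosses) of the KO (red) and WT (blue) libraries, 1 library each. Mgp and Vegfc lie far above the crosses in both libraries, while Nrp1 lies below them.

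Matrix genes of the vessel wall were arterial in part. Of 27 elastic fibre and basement membrane genes measured, 9 were higher in arterial cells and 3 lower (Lama4, Nid1 and Nid2). Eln, which encodes elastin, had 146 CPM in KO and 190 CPM in WT arterial cells, against 32.8 and 37.6 CPM in other endothelial cells. Fbln5, which organises elastin into fibres, had 52.0 and 46.1 CPM, against 1.76 and 1.85 CPM, and Fbln2 had 90.2 and 130 CPM, against 12.4 and 15.7 CPM. Basement membrane collagen was closer between the cells, with Col4a1 at 245 and 234 CPM against 202 and 207 CPM. Of the 4 connexin genes 3 were higher in arterial cells: Gja4 had 39.2 CPM in KO and 45.6 CPM in WT, against 4.99 and 4.12 CPM, and Gja1 had 79.8 and 79.3 CPM, against 35.1 and 36.4 CPM. The fourth, Gjc1, was lower in arterial cells, at 163 and 152 CPM, against 257 and 251 CPM.

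Genes of vascular tone split between the 2 kinds of cell. Edn1, the precursor of the constrictor endothelin-1, had 283 CPM in KO and 453 CPM in WT arterial cells, against 113 and 128 CPM in other endothelial cells. Nos1, the nitric oxide synthase best known from neurons, had 83.5 and 107 CPM in arterial cells, against 5.50 and 5.45 CPM, whereas Nos3, the endothelial enzyme, had 164 and 156 CPM, against 184 and 145 CPM. Ptgis, prostacyclin synthase, the ion channel genes Kcnj2 and Trpv4, and Ace were higher in arterial cells of both libraries, Trpv4 at 38.9 and 39.3 CPM against 13.5 and 15.3 CPM. The adrenomedullin genes Adm and Ramp3 were lower in arterial cells, Adm at 6.69 and 12.4 CPM against 22.3 and 27.5 CPM.

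Of 14 venous genes measured 11 were lower in arterial cells and none higher, and of 13 capillary genes 8 were lower and 2 higher (Slco1c1 and Slc6a6). Il1r1, the interleukin-1 receptor, had 21.6 CPM in KO and 52.2 CPM in WT arterial cells, against 309 and 508 CPM in other endothelial cells, and 795 and 1177 CPM in venous-side cells. Slc38a5, an amino acid transporter, had 10.2 and 15.95 CPM, against 141 and 179 CPM. Car4, a carbonic anhydrase of capillary endothelium, had 63.9 and 70.6 CPM, against 500 and 495 CPM, and Tfrc, the transferrin receptor, had 140 and 111 CPM, against 397 and 317 CPM. Of 27 barrier genes 11 were lower in arterial cells and 2 higher. The higher ones were the thyroid hormone carrier Slco1c1 and the glucose transporter Slc2a1, and Slc2a1 had 3517 CPM in KO and 3592 CPM in WT arterial cells, against 2645 and 2817 CPM. The junction genes Ocln, Cdh5 and Pecam1 were within these limits of the other cells in both libraries.

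Members differed among themselves along Gkn3. Of the KO members 356 had a Gkn3 UMI and 95 had none, and of the WT members 510 had one and 70 had none. Members with Gkn3 also had more UMIs in all, with a median of 8188.5 against 5209 in KO and of 8752 against 6524.5 in WT, so depth differed along this split. Mgp was at 2891 CPM in KO members with Gkn3 and 918 CPM in those without it, and at 3377 and 771 CPM in the WT members. Vcam1, a leukocyte adhesion molecule also known from venules, was at 215 and 37.1 CPM in KO members with and without Gkn3, and at 199 and 30.7 CPM in the WT members. Nr2f2, which helped to set the venous-side cells, was also higher with Gkn3, at 30.4 and 6.45 CPM in KO and at 30.8 and 9.59 CPM in WT. Members without Gkn3 had only 4 Nr2f2 UMIs in KO and 5 in WT. Eln was at 159 and 77.5 CPM in KO members with and without Gkn3 and at 199 and 88.3 CPM in WT members. Hey1 did not follow the split in KO, at 138 and 142 CPM, while it was at 153 and 99.8 CPM in WT. Capillary genes were mixed. Among the lower ones, Rgcc was at 190 and 350 CPM in KO members with and without Gkn3 and at 265 and 443 CPM in WT members, and the chemokine gene Cxcl12 was at 1249 and 2025 CPM in KO and at 1486 and 2199 CPM in WT. Car4 was at 65.9 and 53.2 CPM in KO members with and without Gkn3 and at 72.5 and 49.9 CPM in WT members, and Slc16a1 differed in sign between the libraries, at 60.3 and 75.8 CPM in KO and at 82.8 and 55.6 CPM in WT. Because Gkn3 was part of the rule, members without it passed on Bmx and Sema3g, and this contrast is a description of the members.

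**Figure D2:**
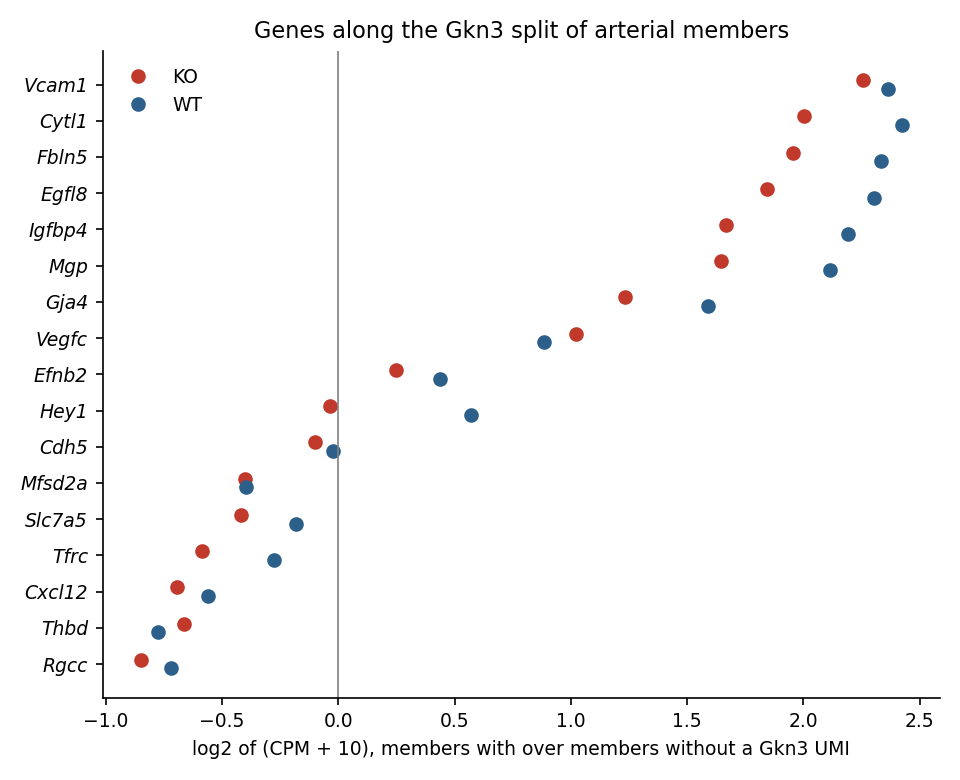
Log2 ratio of CPM + 10 in arterial members with a Gkn3 UMI over members without one (x axis) for 17 genes (y axis), in KO (red, 356 over 95 cells) and WT (blue, 510 over 70 cells). Vcam1, Mgp and Fbln5 lie far to the right in both libraries and Rgcc, Thbd and Cxcl12 to the left.

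Arterial cells made up 17.9% of endothelial barcodes in KO (Clopper-Pearson interval 16.5 to 19.5%) and 21.8% in WT (20.2 to 23.4%). Of all barcodes past the UMI and mitochondrial limits they were 3.90% in KO (3.55 to 4.27%) and 5.75% in WT (5.30 to 6.22%). Gkn3 counts in the rule and was lower in the KO members, which it helped to choose. The cells were carry-over of a CD11b selection. The median arterial barcode had 7236 UMIs in KO and 8215.5 UMIs in WT. After thinning each barcode to 2000 UMIs the shares of endothelial barcodes were 13.5% in KO and 16.4% in WT. The part of Gkn3, of the selection and of depth in these shares was not tested, and the shares are not read as numbers of vessel cells.

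Of the gene lists, the interferon response genes had the largest median difference between KO and WT arterial cells. Of the list's 30 genes, all measured, 29 were higher in KO and none lower, where 4.59% of 12411 genes were higher and 2.71% lower. The median log2 ratio was 1.21 over the list and 0.02 over all genes. Isg15 (chromosome 4, 156199424 to 156200818, minus strand), a ubiquitin-like protein joined to other proteins after interferon, had 726 CPM in KO and 134 CPM in WT arterial cells, a ratio with an interval of 5.02 to 5.86. Irf7, a transcription factor that amplifies the interferon response, had 402 CPM in KO and 92.2 CPM in WT, with an interval of 3.97 to 4.81. Each interval lies far above 1.

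Antiviral effectors stood apart in the same direction. Ifit1, an RNA-binding protein that blocks translation of viral RNA, had 546 CPM in KO and 130 CPM in WT, and Ifit3, its partner, had 414 and 92.5 CPM. Ifi44 had 173 CPM in KO and 31.3 CPM in WT. Ifitm3, which hinders viral entry at the membrane, had 2903 CPM in KO and 1312 CPM in WT, a smaller ratio at a high level. Outside the list, Zbp1, a sensor of Z-form nucleic acids, had 50.8 CPM in KO and 9.67 CPM in WT. Oasl2 had 334 and 99.9 CPM, Slfn2 had 170 and 52.0 CPM, and the signalling factor Stat2 had 145 CPM in KO and 49.3 CPM in WT. The 1 list gene within the limits was Ifi204, at 9.66 CPM in KO and 10.96 CPM in WT. Its relative Ifi203 went the other way, at 109 CPM in KO and 205 CPM in WT, and likewise in other endothelial cells, at 68.2 and 184 CPM.

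**Figure D3:**
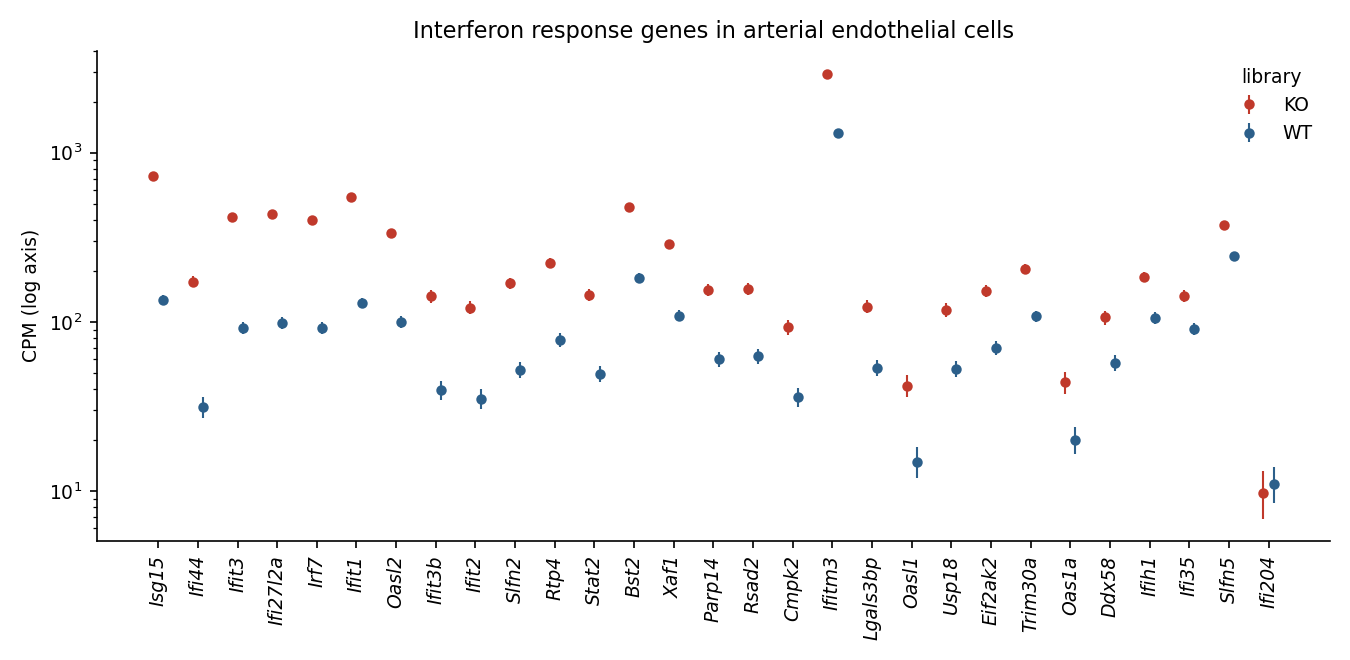
CPM on a log axis of 29 of the 30 interferon response genes in arterial cells of the KO (red) and WT (blue) libraries, with 95% Poisson intervals of the UMI sums, ordered by the ratio of KO over WT. Every gene shown but Ifi204 is higher in KO, from Isg15 with 726 against 134 CPM on the left.

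The difference was spread over the cells. The 30 genes together took a median of 95.5 UMIs per 10000 in KO members and 31.8 in WT members. Of KO members 10% lay below 59.4 per 10000 and of WT members 10% lay above 64.6, so the distributions overlapped at their edges. Isg15 had at least 1 UMI in 91.4% of KO and 52.6% of WT members. In microglia of the same libraries, which have their own interferon genes, the shares were 35.2% and 11.02%, at a median of 6981 UMIs in KO and 8318 UMIs in WT.

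**Figure D4:**
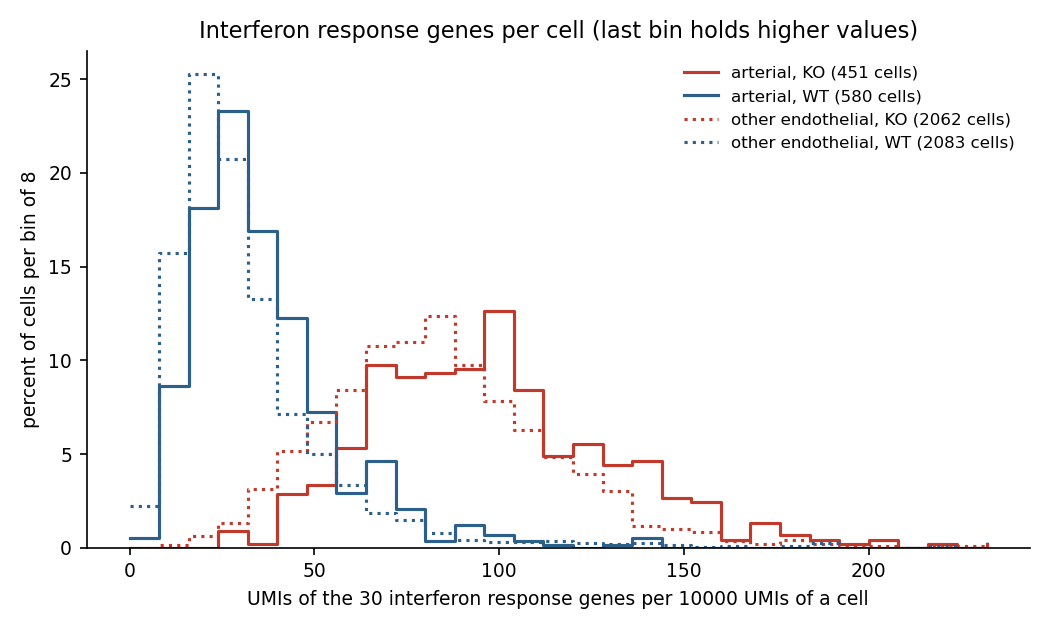
Share of cells, in percent per bin of 8 (y axis), by the UMIs of the 30 interferon response genes per 10000 UMIs of a cell (x axis), for arterial (solid) and other endothelial cells (dotted) of the KO (red) and WT (blue) libraries. The KO curves lie to the right of the WT curves, with medians of 95.5 and 31.8 in arterial cells.

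Other endothelial cells showed a like difference, with 29 of the 30 genes higher in KO and a median log2 ratio of 1.15. In these cells 266 of the 12411 genes were higher and 225 lower at the same limits. The list stood at a median of 81.7 UMIs per 10000 in other endothelial cells of KO and 26.0 in those of WT. Of the 30 genes, 5 were higher in arterial cells of both libraries (Ifit2, Oasl1, Irf7, Ifih1 and Cmpk2) while Slfn2 was lower. Over all genes 4.37% were higher and 3.42% lower in arterial cells. Irf7 was at 261 CPM in KO and 51.2 CPM in WT other endothelial cells, and Ifit2 at 65.1 and 23.9 CPM, against 121 and 35.1 CPM in KO and WT arterial cells.

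Among the 12 highest genes Apol9b was also an arterial one. Apol9b (chromosome 15, 77729039 to 77736382, plus strand), of the apolipoprotein L family, had 88.2 CPM in KO and 24.8 CPM in WT arterial cells, against 13.6 and 2.13 CPM in other endothelial cells. It was at 0.374 and 0.107 CPM in microglia. Its near-identical neighbour Apol9a (chromosome 15, 77403789 to 77411135, minus strand) had 48.8 CPM in KO and 13.5 CPM in WT arterial cells, against 3.85 and 0.900 CPM in other endothelial cells. Reads of such a pair can be split or lost in counting, so the values of each gene are uncertain. Both were higher in KO within each kind of cell and higher in arterial cells within each library.

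MHC class I presentation shows peptides from inside the cell to CD8 T cells. Of 18 of its genes 13 were higher in KO and none lower, where 4.59% of all genes were higher and 2.71% lower. The median log2 ratio was 0.49, and 0.48 in other endothelial cells. B2m, the light chain, had 2125 CPM in KO and 1446 CPM in WT arterial cells. H2-T23, a class Ib chain, had 383 and 236 CPM, and Nlrc5, the transactivator of the class I genes, had 37.9 and 18.05 CPM. The immunoproteasome subunits Psmb8 and Psmb9 had 283 and 169 CPM in KO, against 190 and 111 CPM in WT. The classical chains were closer, with H2-K1 at 1091 and 923 CPM and H2-D1 at 1384 and 1293 CPM. H2-Q6 and H2-Q7 are near-identical genes whose separate counts are uncertain. Cd274, which encodes the checkpoint ligand PD-L1, had 41.4 CPM in KO and 23.4 CPM in WT.

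MHC class II genes, normally of antigen-presenting leukocytes, were at low levels. Of 6 measured 4 were higher in KO, where 4.59% of all genes were higher. With stricter purity limits 0 were, and with equal weight per cell 1 was, where Cd74 and H2-Eb1 turned to log2 ratios of -0.035 and -0.00917. H2-Aa had 29.0 CPM in KO and 14.0 CPM in WT, and Cd74, the invariant chain, had 52.0 and 30.8 CPM. Single cells carried much of this: 1 KO cell held 24.8% of the H2-Aa UMIs and 1 WT cell 49.4%. In other endothelial cells the list's median log2 ratio was 0.06. A Cd74 UMI was seen in 10.2% of KO and 10.0% of WT members; microglia, which express the gene, had one in 35.4% and 31.5% of cells. Over the list of 8 border macrophage markers the summed level was 50.3 CPM in KO and 110 CPM in WT arterial cells, with none of the 8 at 0 in either library. Of these UMIs 58.1% in KO and 39.7% in WT were in 5 cells, and the median member had none. The part of border macrophage RNA in the class II values was not tested.

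Of 18 genes known to be induced by glucocorticoids, 9 were lower in KO and none higher, where 2.71% of all genes were lower, with a median log2 ratio of -0.29 in arterial and -0.30 in other endothelial cells. Fkbp5, a chaperone of the glucocorticoid receptor, had 55.0 CPM in KO and 110 CPM in WT arterial cells. Zbtb16, a transcription factor, had 231 and 399 CPM, and Cdkn1a, the cell cycle inhibitor p21, had 155 and 247 CPM. Sgk1 and Ddit4 had 126 and 108 CPM in KO, against 170 and 157 CPM in WT. Ctla2a, a protease inhibitor, had 268 CPM in KO and 408 CPM in WT arterial cells, while in other endothelial cells it had 1284 and 1245 CPM; the difference between the kinds of cell was not tested. Depp1, known as a target of FOXO factors, was lower too, at 302 CPM in KO and 594 CPM in WT arterial cells and at 123 and 212 CPM in other endothelial cells.

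Further genes among the 12 lowest were also lower outside the arteries. Cdk8, a kinase of the Mediator complex, had 229 CPM in KO and 404 CPM in WT arterial cells, against 221 and 383 CPM in other endothelial cells and 167 and 277 CPM in microglia. Cmss1 had 983 and 1709 CPM, against 949 and 1458 CPM in other endothelial cells and 451 and 722 CPM in microglia. Ccl3, a chemokine made by microglia, had 33.5 CPM in KO and 65.1 CPM in WT arterial cells, where microglia had 480 and 809 CPM. The part of microglial RNA in the Ccl3 values was not tested.

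Clock genes differed in part. Of 15 measured 4 were higher in KO and none lower, where 4.59% of all genes were higher. In other endothelial cells 3 of the 15 were higher and none lower, where 266 of 12411 genes were higher and 225 lower. Their median log2 ratio there was -0.0017, against 0.12 in arterial cells. Summed over the list, the level was 1027 CPM in KO and 812 CPM in WT arterial cells, but 435 and 567 CPM in microglia. Nr1d1, the repressor REV-ERB alpha, had 94.9 CPM in KO and 36.3 CPM in WT arterial cells, with an interval of the ratio of 2.21 to 3.101. Dbp had 228 and 140 CPM, Hlf 160 and 111 CPM, and Ciart 42.9 and 26.9 CPM. Per1 had 75.8 and 76.0 CPM and Clock 60.5 and 69.0 CPM. The hour at which each brain was taken is not stated, and its part in the clock and glucocorticoid genes cannot be told apart from genotype.

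Of the 28 arterial identity genes none was higher in KO and 4 were lower, where 2.71% of all genes were lower: Edn1 with 283 CPM in KO and 453 CPM in WT, S100a6 with 194 and 299 CPM, Sox17 with 383 and 519 CPM, and Eln with 146 and 190 CPM. Sox17 is a transcription factor of arterial fate. The interval of the ratio was 0.582 to 0.669 for Edn1 and 0.693 to 0.783 for Sox17. With each barcode thinned to 2000 UMIs the log2 ratio of Eln was 0.09. Dll4, Efnb2, Hey1, Gja4 and Vegfc were within the limits. Mgp had a log2 ratio of -0.29 in arterial cells, within the limits, and was higher in KO other endothelial cells, at 0.49.

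The Notch and vascular tone lists had few genes past the limits, and with 4.59% of all genes higher and 2.71% lower such counts are not read as results about the lists. Of 20 Notch pathway genes 2 were higher in KO and none lower. Nrarp, a feedback inhibitor induced by Notch, had 33.2 CPM in KO and 22.4 CPM in WT, and Dll1 had 5.70 and 1.77 CPM. Of 22 genes of vascular tone 1 was higher in KO, Ptgs2 (cyclooxygenase 2) with 19.6 CPM against 11.1 CPM, and 4 were lower, Edn1, Adm, Ramp3 and Cav1. Of 20 immediate-early and heat shock genes measured none was higher in KO and 4 were lower, with Hspa1b, a stress-induced chaperone, at 127 CPM in KO and 238 CPM in WT and Egr1 at 116 and 154 CPM, whereas Fos had 443 and 428 CPM. Such genes also respond to tissue dissociation, and how the 2 preparations compared in that was not tested.

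Of 26 barrier genes measured 1 was higher in KO, the amino acid transporter Slc7a1 with 340 CPM against 260 CPM in WT, and 3 were lower, among them the drug efflux pump Abcc4 with 658 CPM in KO and 833 CPM in WT. Slc2a1, Abcb1a and Ocln were within the limits. Over all genes 4.59% were higher and 2.71% lower at these limits. None of the 17 respiratory chain genes and none of the 18 TGF-beta and BMP genes passed the limits in either direction. Of 16 measured adhesion and chemokine genes 2 were higher (Cd274 and Ccl2) and 1 lower (Icam1, at 15.6 CPM in KO and 22.7 CPM in WT). Of 11 venous genes measured 1 was higher in KO and 6 lower, with a median log2 ratio of -0.35 that turned to 0.056 after thinning to 2000 UMIs, where 1 gene was lower; among the 6 were Lcn2 with 10 UMIs in KO and 85 UMIs in WT and Il1r1 with 21.6 CPM in KO and 52.2 CPM in WT. The log2 ratio of Il1r1 lay between -1.31 and -0.21 over the alternative settings.

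**Figure D5:**
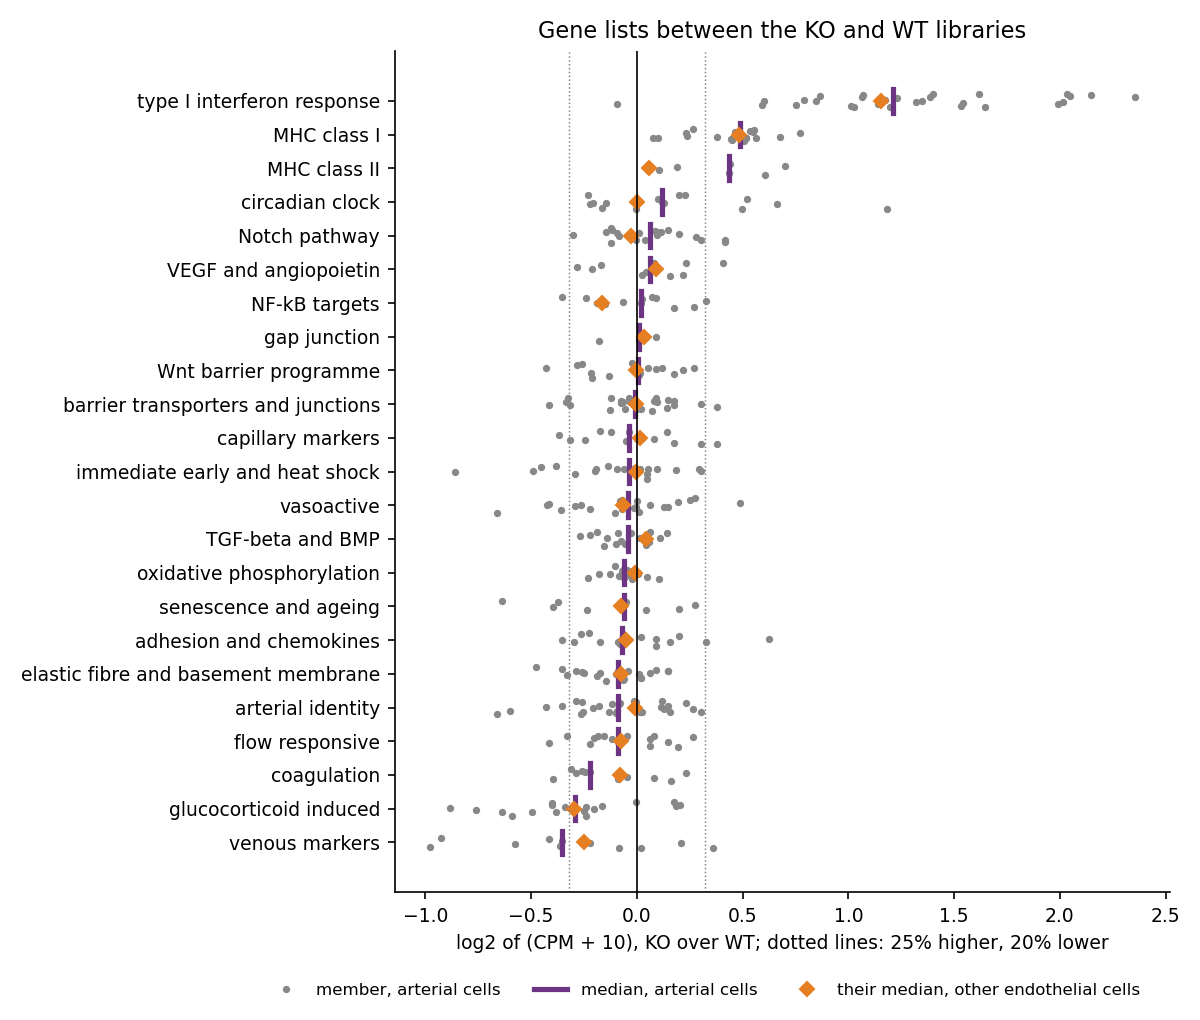
Log2 ratio of CPM + 10 in KO over WT arterial cells (x axis) for the members of 23 gene lists (grey points), their median (purple bar) and the median of the same members in other endothelial cells (orange diamond); dotted lines mark 25% higher and 20% lower. The interferon and MHC class I lists stand to the right, with medians of 1.21 and 0.49, and the glucocorticoid list to the left at -0.29.

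The 6 genes at least 2-fold lower in KO were S100a8, S100a9 and Retnlg, which mark neutrophils, Pf4 and Ppbp, which mark platelets, and Nrgn, a calmodulin-binding protein of neurons that is also found in platelets. The rule capped Ppbp together with Gp9 and Clec1b, so the Ppbp level was partly bounded by the choice of cells. Nrgn had 13.4 CPM in KO and 52.2 CPM in WT arterial cells, and 9.86 and 22.3 CPM in other endothelial cells. Beside Nrgn, the summed level of the 6 platelet markers was 19.1 CPM in KO and 118 CPM in WT arterial cells, with none of them at 0. The 7 neutrophil and monocyte markers summed to 48.6 CPM in KO and 400 CPM in WT, where 5 cells held 89.1% of the WT UMIs. Their part in the 6 values was not tested.

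Markers of other cells were also present in the arterial sums. The rule capped several microglial, pericyte and platelet genes in these cells, so their sums were partly fixed by the choice. The 12 microglial markers summed to 2312 CPM in KO and 2220 CPM in WT arterial cells, against 37011 and 35540 CPM in microglia. The 8 smooth muscle markers summed to 463 and 274 CPM, with 64.1% of the KO UMIs in 5 cells, and the 10 pericyte markers to 306 and 247 CPM. The 8 choroid plexus and ependymal markers, mostly Ttr, summed to 3053 CPM in KO and 2143 CPM in WT. The 8 neuron markers summed to 577 CPM in KO and 601 CPM in WT arterial cells, against 141 and 130 CPM in other endothelial cells. Of the 8 genes 2 were higher in arterial cells of both libraries, 1 of them 2-fold, and none was lower. Their median log2 ratio of arterial over other was 0.005 in KO and 0.001 in WT, so few of the genes carried the sum. Only 5.29% of the KO and 4.43% of the WT UMIs of these 8 were in 5 cells. The 9 astrocyte markers summed to 515 and 489 CPM, against 306 and 269 CPM. Of these 9 genes 2 were higher in arterial cells of both libraries and none lower, with median log2 ratios of -0.12 in KO and -0.21 in WT. The part of neuronal or astrocyte RNA in arterial values such as that of Nos1 was not tested. The 5 erythroid markers summed to 2216 CPM in KO and 827 CPM in WT, with 99.7% of the KO and 95.5% of the WT UMIs in 5 cells. Without the members richest in T cell, border macrophage, smooth muscle or erythroid markers, 444 KO and 577 WT cells remained, and 29 interferon genes were again higher in KO.

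CD200, the ligand of CD200R1, was expressed by these cells. Cd200 (chromosome 16, 45382135 to 45409053, minus strand) had 535 CPM in KO and 626 CPM in WT arterial cells, with an interval of the ratio of 0.81 to 0.90. In other endothelial cells it had 446 and 598 CPM. The receptor gene Cd200r1 (chromosome 16, 44765736 to 44794978, plus strand) had 5 UMIs in KO and 11 UMIs in WT arterial cells, or 1.24 and 1.77 CPM, in 0.887% of KO and 1.38% of WT members. In microglia, which express it, a UMI was seen in 16.5% of KO and 20.5% of WT cells. The arterial counts are too few to check the genotype label.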

How the data were processed

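Single-cell RNA of brain cells was measured in 1 KO and 1 WT library. The matrices that the authors deposited give whole UMI counts, not normalized, for 32285 genes. Per the file headers they came from Cell Ranger 7.0.1; STAR, Seurat 3.1.1 and GRCm38/mm10 are named in the submitters' processing notes without parameters. The features and barcodes files, as deposited, hold names only. The libraries held 131196245 UMIs in KO and 127429919 in WT, and the arterial members 4035294 and 6206709, with medians of 3070 and 3233 genes per cell. The libraries shared 103 barcodes, and no arterial barcode was arterial in both.

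UMIs were summed over the members of each library and scaled to CPM. The value of a gene was the log2 ratio of CPM + 10, KO over WT or arterial over other endothelial. A list gene needed 20 UMIs over the compared sums and counted when 25% higher or 20% lower; a gene counted as 2-fold needed 50 UMIs. Intervals are exact Poisson for sums, exact conditional for ratios and Clopper-Pearson for shares, at 95%. Arterial over other counts needed both libraries to pass in the same direction. Venous-side cells were other endothelial cells with Nr2f2, Slc38a5 and Ackr1 at 0.05% or more and 2 UMIs or more, and capillary-side cells the rest with Mfsd2a, Rgcc and Spock2 at the same limits.

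The members and the gene lists were chosen with earlier results of these data known. Named genes are the 12 highest and 12 lowest of KO over WT, the 15 highest and 10 lowest of arterial over other, up to 4 members at each end of each list, list members that define an arterial role and the rule genes; not ranked were genes of the mitochondrial genome, ribosomal proteins, haemoglobins, the Y chromosome, Xist and Tsix, receptor segments, Gm and Rik names, Cd200r1 and markers of other cells. Apol9a, the markers of other cells among the genes at least 2-fold lower and a few further list members were named after their values were seen.

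Doublets were kept; Scrublet (scanpy 1.11.5), run on barcodes past the filter, called 579 of 11573 in KO (5.00%) and 388 of 10091 in WT (3.85%), below the expected 15.3% and 14.6%, and 9 and 20 arterial barcodes. Microglia as a background were barcodes with at least 0.5% of the microglial rule genes and less than 0.05% of Cldn5 and Flt1. Alternatives changed the pseudocount, the UMI minimum, the scaling (TMM, edgeR 4.0.16), the cell weights, the limits of the rule, the doublets and the depth; the restriction to members with Gkn3 and the removal of members rich in other markers were added after the data were seen. The ratio, interval and rule functions were tested on simulated data. Python 3.11.15, numpy 2.4.6, scipy 1.17.1 and R 4.3.3 were used. Positions are from GENCODE vM21 (GRCm38), 1-based. The number of mice in each library is not given in the sources used here. Some items are not reported here.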

Additional observations from a re-analysis of the deposited data

Results flagged for a closer look

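Only list members and named genes with at least 50 UMIs over both libraries were searched here, not all genes. In 4 of them, arterial cells were at least 25% higher in KO and other endothelial cells at least 20% lower. The same share over all genes was not taken, so nothing is read from this count. The difference itself was not tested. Ccl2, a monocyte chemokine, had a log2 ratio of 0.33 in arterial cells, with 29 UMIs in KO and 23 UMIs in WT, and of -0.62 in other endothelial cells. The haemoglobin genes Hba-a1, Hba-a2 and Hbb-bs had log2 ratios of 1.04, 0.90 and 1.72 in arterial cells and of -0.41, -0.46 and -0.39 in other endothelial cells. Of the Hbb-bs UMIs, 49.1% in KO and 95.7% in WT arterial cells were in 1 cell.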

How the results depend on the processing

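With 1 library in each group no replicate could be left out. No paired analysis was possible because each group has 1 library. Under all 12 alternatives 29 interferon genes were higher in KO, and the list's median log2 ratio lay between 0.94 and 1.37. With a pseudocount of 1 CPM, 102 genes were 2-fold higher and 27 lower in KO, and 275 higher and 185 lower in arterial cells; with 50 CPM the counts were 17, 2, 40 and 34. The 6 genes lower in KO became 12 with the arterial limit at 0.1% and 3 UMIs and also 12 after thinning to 2000 UMIs. Arterial cells were 9.67% of KO and 14.0% of WT endothelial barcodes with that stricter limit, 13.5% and 16.4% after thinning, and 23.6% in WT at no more than 5% mitochondrial UMIs. The log2 ratio of KO over WT reversed after thinning for the median of the venous genes (0.056), for Eln (0.090) and for Flrt2 (0.12); with equal weight per cell for H2-Eb1 (-0.00917) and Cd74 (-0.035); and with stricter purity limits for H2-Eb1 (-0.10) and Igfbp5 (0.11). The cause was not tested. Of 2112 gene values of KO over WT, 1979 stayed within the half-width of their counting interval, 127 moved beyond it and 6 reversed. Genes under about 20 UMIs could not be compared at this depth.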

Other observations

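Of the 45 genes at least 2-fold higher in KO arterial cells, several encode interferon-inducible GTPases, which act on the vacuoles of intracellular parasites. They were picked from those 45, so their direction was fixed by the choice and nothing is read from it for the family; their levels are a description. Iigp1 had 185 CPM in KO and 67.7 CPM in WT arterial cells, Igtp 100 and 42.7 CPM, Irgm1 111 and 50.4 CPM, and Irgm2 98.9 and 42.2 CPM. Tgtp2 had 45.6 CPM in KO and 13.9 CPM in WT. In other endothelial cells Iigp1 had 184 and 78.9 CPM and Tgtp2 36.3 and 12.3 CPM. Iigp1 was at 5.75 CPM in KO and 3.48 CPM in WT microglia, far below its level in either kind of endothelial cell.

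Of the genes at least 2-fold higher in KO, Spag16 and Grm7 rested on few cells. Spag16, of the sperm and cilium axoneme, had 50 UMIs in KO and 5 in WT arterial cells, and 84.0% of the KO UMIs were in 1 cell. Grm7, a glutamate receptor, had 92 UMIs in KO and 29 in WT, with 45.7% of the KO UMIs in 1 cell.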
